A study of Mus musculus with 6 samples.

Results

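The 3 control libraries of a 6-library mouse RNA-seq series were examined on their own, as a baseline of gene activity in the lumbar dorsal root ganglia at E12.5. They were the 3 columns named Control 1, Control 2 and Control 3 in the deposited expression table, and the 3 knockout libraries were not analysed here. Controls 1 and 3 were titled Wnt-Cre and control 2 was titled WT, and all were of a mixed C57/Bl6 x 129/SvEv background. In the cross described by the labels, Wnt1-Cre drives recombination in the neural crest lineage, from which the neurons and glia of the ganglia arise. The controls came from matings that also carried a floxed allele of the miR-183-96-182 cluster, and the sources used here do not say whether a control carried it. The series lists the controls as 3 mice, without stating if any library was a pool of embryos.

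Dorsal root ganglia hold the cell bodies of the neurons that carry touch, body position, pain, itch and temperature to the spinal cord. These neurons are born from migrating neural crest cells that pass through a phase of Neurog gene activity, leave the cell cycle and switch on Isl1 and Pou4f1. Classes then part by neurotrophin receptor, with TrkB (Ntrk2) and Ret in touch neurons and TrkC (Ntrk3) in position-sensing neurons. Crest cells that do not become neurons keep Sox10 and give satellite glia and Schwann cells.

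The table held 24264 rows with 23427 distinct symbols, and its values were taken as RPKM, read number per kilobase of transcript and M mapped reads (M for mega). Depth was estimated at 21.7, 24.3 and 20.2 M reads in controls 1 to 3. A value of 0 therefore allows, at 3 reads, up to 0.138, 0.123 and 0.148 RPKM for a transcript of 1 kb, counting error alone. A gene was called on where it reached 1 RPKM in each control, off where it was under 1 RPKM in each, and mixed otherwise. By this rule 12636 rows were on (52.1% of all rows), 10712 were off and 916 were mixed. Each control had between 12936 and 13232 rows at 1 RPKM or more. The counts of list members given below are read against the 52.1% of the whole table. For counts at 10 or 100 RPKM or more in each control, the shares of all rows were 26.3% and 1.95%.

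The defining markers of the labelled tissue, neuronal and glial alike, were present in every control. Pou4f1, the POU factor of early sensory neurons (chromosome 14, 104461675 to 104468118 in GRCm38.p6), was at 77.6, 77.0 and 66.1 RPKM in controls 1 to 3. Isl1, the LIM homeodomain factor that acts with it (chromosome 13, 116298270 to 116309688), was at 202, 161 and 181 RPKM. Sox10, the crest and glial factor (chromosome 15, 79154913 to 79164490), was at 47.7, 53.5 and 41.4 RPKM. The means were 73.5 ± 6.47, 181 ± 20.3 and 47.5 ± 6.10 RPKM (SD, n = 3), so Isl1 was the most abundant of them in each control. Of 12 sympathetic neuron genes 4 were on (Th, Chga, Slc18a2 and Ddc), 1 was mixed and 7 were off, among them Dbh, which makes noradrenaline, at 0.121, 0.0542 and 0 RPKM.

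The most abundant messages came from mitochondria, the tubulin cytoskeleton, the protein synthesis machinery and red blood cells. The 20 most abundant rows held 20.6, 16.1 and 14.6% of the summed RPKM of controls 1 to 3, and the top 1000 held 61.5, 58.6 and 57.2%. First in rank was mt-Atp6, a subunit of ATP synthase, at 9248, 7355 and 7214 RPKM. Behind the cytochrome oxidase genes mt-Co3, mt-Co2 and mt-Co1 came Tuba1a, the alpha-tubulin of growing neurons, at 5397, 4703 and 4936 RPKM. Tuba1b and Tuba1c followed at means of 2873 ± 38.4 and 2355 ± 76.4 RPKM (SD, n = 3), but these genes are near-identical copies whose reads may have been split. Others among the top 20 rows were the elongation factor Eef1a1 (mean 3676 RPKM) and the actin-binding peptide Tmsb4x (mean 3335 RPKM). As classes, mitochondrially encoded genes held 12.7, 10.7 and 10.2% of the summed RPKM, the 85 cytosolic ribosomal protein rows 5.41, 6.64 and 6.22%, and the tubulins 3.46, 3.29 and 3.61%.

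Neuron and glia genes stood close behind these housekeeping classes. Nefm, a neurofilament subunit, ranked 40th by mean level with 1079, 771 and 904 RPKM. Fabp7, the fatty acid binding protein of glial precursors, ranked 44th with 923, 666 and 836 RPKM. Tubb3 and Stmn2, a neuronal tubulin and a tubulin-binding phosphoprotein, ranked 45th and 52nd at means of 792 ± 85.5 and 660 ± 98.5 RPKM (SD, n = 3). The imprinted gene Nnat, which is active in young neurons, was ranked 51st. Control 2 was the lowest in Nefm, Fabp7, Tubb3 and Stmn2, and control 1 in Nnat (588, 697 and 711 RPKM).

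**Figure D1:**
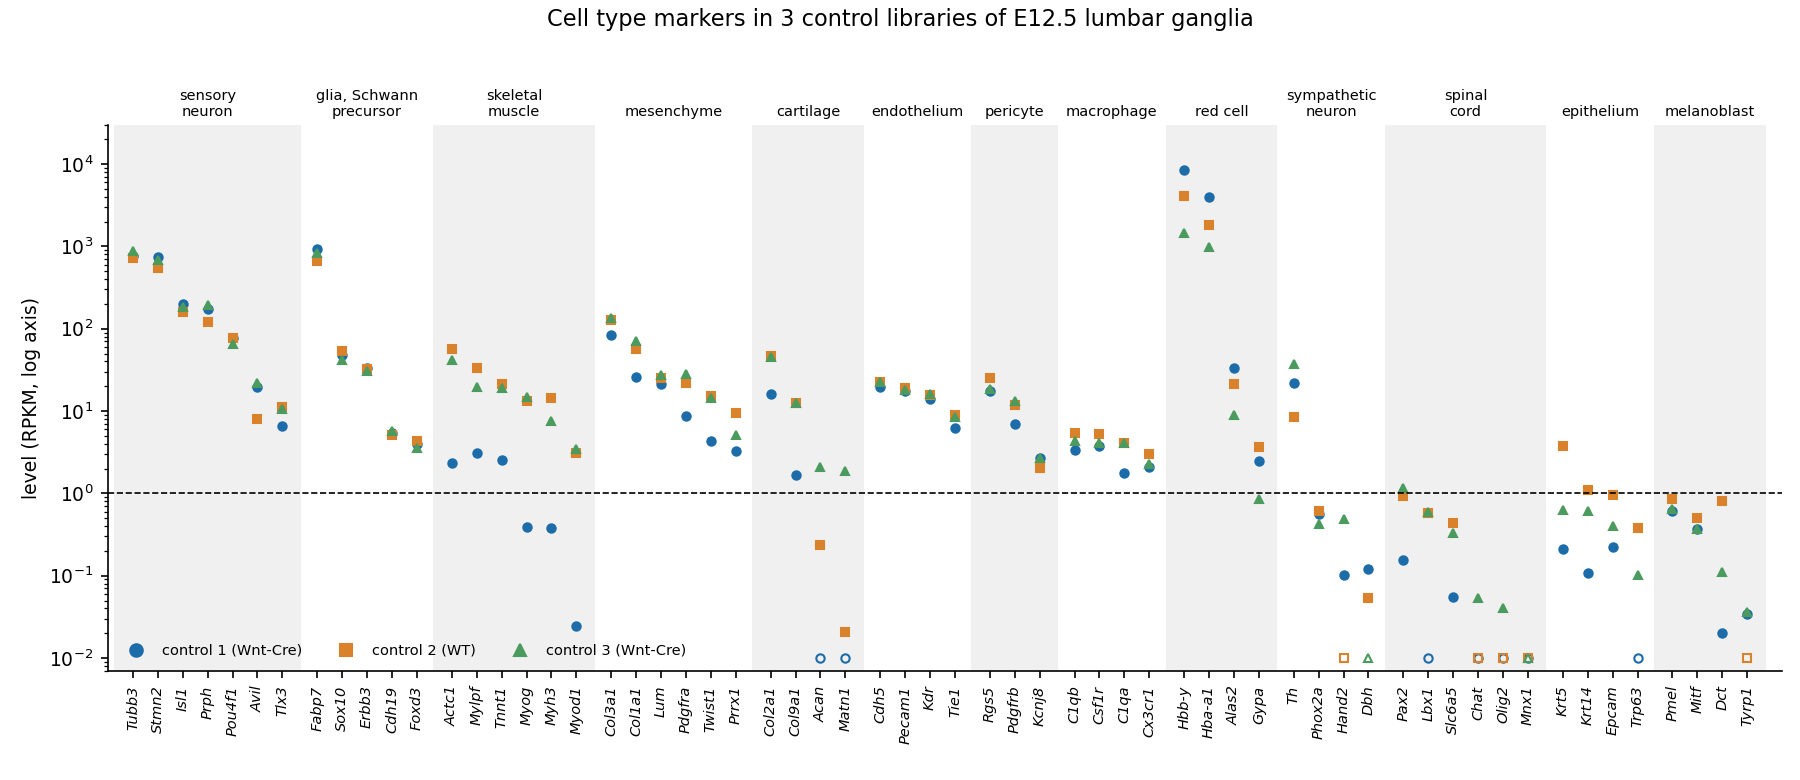
Level in RPKM (log axis) of the marker genes of 13 cell types in each of the 3 controls, with the dashed line at 1 RPKM and open symbols at 0.01 for values under 0.01. Sensory neuron and glia markers lie above the line in every control, from 3.56 RPKM (Foxd3) upward, while control 1 is the lowest for each of the 6 muscle markers.

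The general neuronal programme was on throughout. All 30 pan-neuronal genes were on, 26 of them at 10 RPKM or more and 12 at 100 RPKM or more in each control. After Nefm, Tubb3 and Stmn2 came Nefl at 524, 407 and 516 RPKM. Of the 20 transcription factors of sensory neurons, 17 were on and none was off. Beside Isl1 and Pou4f1, Ldb1, a LIM factor cofactor, was at 53.8, 70.4 and 68.6 RPKM, and Isl2, a relative of Isl1, was at 22.6, 25.4 and 33.2 RPKM. The 3 mixed members were Lhx1, Lhx2 and Lhx5, LIM factors of which Lhx1 and Lhx5 also mark spinal interneurons. In such bulk tissue, fewer cells of a type and less RNA per cell cannot be told apart, which holds for every class below.

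The neurotrophin and GDNF family receptors were on and most of their ligands were off. Among 21 genes of these families 12 were on, 2 mixed and 7 off. Ngfr, the low-affinity receptor that neurons and glia share, was at 94.3, 95.8 and 104 RPKM. Further down, Gfra1 was at 38.5, 40.6 and 39.2 RPKM and Gfra3, the artemin co-receptor, at 35.6, 32.9 and 38.6 RPKM. Ret followed at 10.4 ± 1.73 RPKM, Ntrk2 at 9.33 ± 1.19 RPKM and Ntrk3 at 8.78 ± 0.773 RPKM (SD, n = 3). The ranges of Ret, Ntrk2 and Ntrk3 overlapped, so these 3 had no order beyond their spread. Among the ligands, Bdnf, Gdnf, Artn, Nrtn, Pspn and Ntf5 were off, with Bdnf at 0.543 RPKM at most. Ntf3, which the position-sensing neurons need, was mixed at 0.292, 0.6 and 1.41 RPKM.

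Of 22 nociceptor lineage genes 11 were on, 4 mixed and 7 off, a share close to the 52.1% of the whole table. The ATP-gated channel gene P2rx3 was at 126, 84.1 and 124 RPKM, and Prdm12, the regulator required for pain neurons, was at 98.4, 78.9 and 92.9 RPKM. The voltage-gated sodium channel gene Scn9a was at 56.0, 39.3 and 45.3 RPKM and Scn10a, best known from adult pain neurons, at 22.8, 8.72 and 27.7 RPKM. In all 4 of these genes control 2 was the lowest. Runx1, the factor that later directs the non-peptidergic subtypes, was on at a low level, 3.45, 1.53 and 4.91 RPKM. Heat and peptide genes lay at the threshold, with Trpv1 at 1.18, 0.312 and 1.70 RPKM and Tac1, the substance P gene, at 2.00, 0.493 and 2.65 RPKM. The off members were Oprk1, Calcb, Scn11a, Mrgprd, Trpa1, Oprm1 and Trpm8. Of these, the cold receptor gene Trpm8 was at 0.0122, 0 and 0.0131 RPKM and the opioid receptor gene Oprm1 at 0, 0.0157 and 0.0378 RPKM.

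Itch genes were largely off. In the list of 23 late nociceptor and itch genes, 16 were off, 3 were mixed and 4 were on. The itch receptor genes Mrgpra2a, Mrgpra3, Mrgprb4, Mrgprb5 and Mrgprx1 were listed at 0 in all 3 controls, and Nppb, the peptide of itch neurons, was at 0.0547, 0.0489 and 0.0588 RPKM. Those that were on included Sstr2, a somatostatin receptor gene, at 8.15, 9.16 and 9.33 RPKM, and Cd55 and Lpar3 between 1.46 and 4.59 RPKM. Somatostatin itself (Sst) was mixed at 0.482, 0.554 and 2.66 RPKM.

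Touch and position-sensing lineages were represented by their early regulators. Of 19 mechanoreceptor genes 15 were on and 4 off, and of 16 proprioceptor genes 13 were on, 1 mixed and 2 off. Piezo2, the mechanically gated channel of touch, was at 7.69, 5.96 and 8.44 RPKM. Its relative Piezo1 was at 2.89, 4.71 and 5.0 RPKM. The touch-lineage factors Shox2 (11.5, 14.6 and 11.4 RPKM) and Maf (8.75, 9.22 and 9.37 RPKM) were on, while Mafa was off at 0.286, 0.437 and 0.570 RPKM. Also off were Calb2, Slc17a8 and Npy2r, which mark adult touch subtypes. For position sense, Runx3, which maintains TrkC neurons, was at 18.1, 19.8 and 13.8 RPKM and Etv1, a factor of muscle afferents, at 10.4, 7.05 and 9.01 RPKM. Pvalb, the calcium buffer of adult position-sensing neurons, was off at 0.336, 0.0429 and 0.413 RPKM. Runx3 (17.2 ± 3.07 RPKM) lay above Runx1 (3.29 ± 1.70 RPKM) in each control, and the difference exceeded both SDs (n = 3).

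Of 22 neuropeptide genes 5 were on (Gal, Npy, Adcyap1, Penk and Nmb), 6 were mixed and 11 off. Gal was at 32.9, 5.76 and 39.2 RPKM, so that control 2 stood well below the others. Npy was at 9.70, 8.20 and 10.6 RPKM and Adcyap1, the PACAP gene, at 7.66, 6.32 and 7.31 RPKM, with the controls close together. Calca, which encodes CGRP, was mixed at 0.969, 1.25 and 0.749 RPKM. Nmu was listed at 0, and Vip, Pdyn, Ucn and Crh were each at 0 in 2 of 3 controls and at most 0.0695 RPKM in the other.

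Of the 3 vesicular glutamate transporter genes 2 were on, while Slc17a8 was off at 0.0317, 0.0945 and 0.0909 RPKM. Slc17a6, the vesicular glutamate transporter 2, was at 39.2, 30.2 and 36.4 RPKM and Slc17a7, the first glutamate transporter, at 3.91, 4.23 and 4.24 RPKM. Of 17 transmitter genes 12 were off, among them the GABA genes Gad1, Gad2 and Slc32a1, the glycine transporter Slc6a5 and the acetylcholine genes Chat and Slc18a3. The GABA and glycine genes were not level among the controls, for Gad2 was at 0.0420, 0.864 and 0.361 RPKM and Slc6a5 at 0.0545, 0.438 and 0.332 RPKM. Th, the rate-limiting enzyme of catecholamine synthesis, was on at 22.2, 8.57 and 36.9 RPKM, although Dbh, Phox2a and Hand2 were off. Chga, a secretory granule protein gene that is also on the sympathetic list, was at 29.6, 24.0 and 35.8 RPKM.

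Channel genes were partly in place. Of 15 sodium channel rows 11 were on, and of 23 transduction channels 10 were on, 3 mixed and 10 off. Beside Scn9a and Scn10a, the auxiliary subunit Scn3b was at 31.6, 22.6 and 31.0 RPKM, Scn7a at 17.8, 11.6 and 16.3 RPKM and the embryonic channel Scn3a at 14.6, 10.2 and 14.1 RPKM. Scn11a, Scn4a and Scn4b were off. The acid-sensing channel Asic1 was at 20.8, 20.2 and 24.7 RPKM and Trpv2 at 13.6, 10.9 and 12.7 RPKM. Further temperature-linked channels of the TRP family, Trpm3, Trpv3, Trpv4 and Trpm8, were off. Trpa1, the irritant receptor, was at 0.0441, 0.118 and 0.0593 RPKM.

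Glial genes were on as an immature set. Of 24 genes of glia and Schwann cell precursors 23 were on, 17 of them at 10 RPKM or more in each control, and only Dhh, the hedgehog ligand of Schwann cells, was off at 0.722, 0.889 and 0.839 RPKM. Ednrb, the endothelin receptor of crest-derived cells, was at 151, 142 and 169 RPKM. Cdh19, a cadherin of Schwann cell precursors, was at 5.42, 5.11 and 5.72 RPKM. Erbb3, the neuregulin receptor needed by Schwann cell precursors, was at 33.5, 32.1 and 30.4 RPKM. None of the 23 genes with a mean of 1 RPKM or more differed 2-fold between the highest and the lowest control.

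The mature glial and myelin list gave a different picture, with 6 of 20 genes on, 3 mixed and 11 off. Glul, glutamine synthetase, was the highest at 60.9, 54.7 and 53.1 RPKM, and Mbp, myelin basic protein, was at 6.71, 5.74 and 7.34 RPKM. Egr2, the master regulator of myelination, was mixed at 1.23, 1.23 and 0.658 RPKM, and S100b at 1.09, 0.733 and 1.32 RPKM. Gfap, Gjb1, Pmp2, Aqp4 and Kcnj10 were among the off genes, and Mobp was listed at 0.

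Neurogenesis genes were on in all 3 controls. Of 32 genes of sensory neurogenesis and Notch signalling 30 were on and none was off. Among them were the transcription factor genes Ebf1 at 102, 84.8 and 105 RPKM, Nhlh1 at 108, 89.7 and 92.2 RPKM, Hes6 at 77.5, 109 and 73.9 RPKM, Nhlh2 at 82.2, 74.1 and 76.3 RPKM and Neurod1 at 66.9, 71.9 and 62.5 RPKM. Neurog1, which acts upstream of Neurod1, was at 19.5, 31.6 and 13.7 RPKM. Neurog2, which acts in the earlier wave that gives touch and position-sensing neurons, was near the threshold at 1.72, 1.89 and 0.737 RPKM. Neurog1 lay above Neurog2 in every control. The progenitor factor Sox2 was at 18.6, 18.3 and 12.2 RPKM, and the Notch ligand Dll1 at 8.30, 13.3 and 5.53 RPKM.

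Genes of dividing cells were on beside those of neurons. Of 32 cell cycle genes 31 were on, 25 of them at 10 RPKM or more in each control, and Cdkn2a, a senescence gene, was listed at 0. Mki67 was at 37.5, 48.1 and 33.5 RPKM and Ccna2 at 42.7, 59.7 and 41.4 RPKM. Cdkn1c, which holds cells out of the cycle, was the highest of the list at 77.1, 125 and 119 RPKM. Of 23 crest and boundary cap genes 16 were on, 6 mixed and 1 off. At 10 RPKM or more in each control were 7 of them, a share close to the 26.3% of all rows. Id3 was the highest at 33.3, 58.9 and 59.8 RPKM. Pax3 was lower at 4.78, 7.93 and 3.12 RPKM, as was the boundary cap gene Prss56 at 0.94, 1.29 and 1.21 RPKM.

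**Figure D2:**
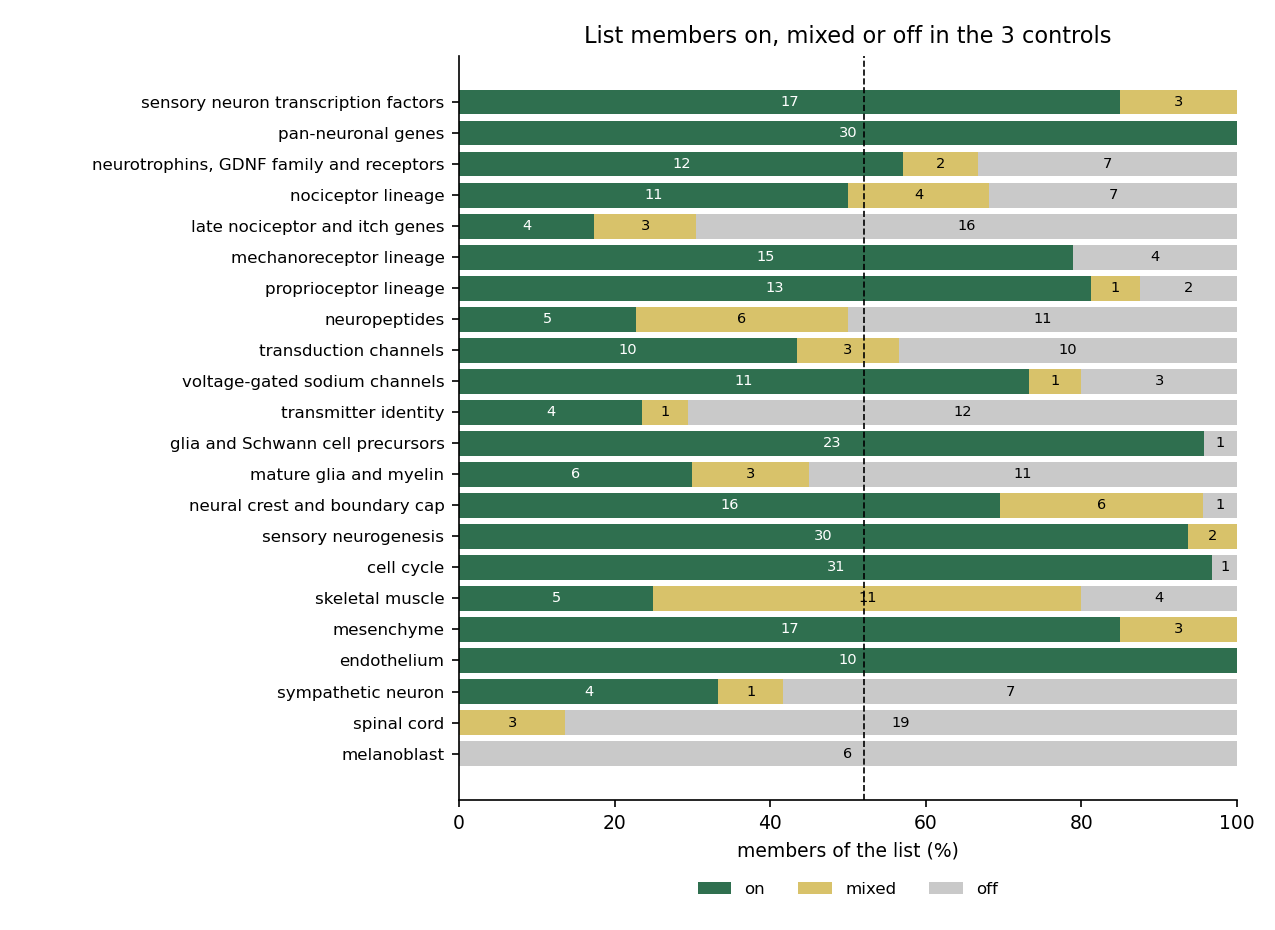
Share of each gene list that was on (1 RPKM or more in each control), mixed or off (under 1 RPKM in each), with the number of members printed in the bars and the dashed line at the 52.1% of all rows that were on. Pan-neuronal, precursor glia, neurogenesis and cell cycle lists are on almost whole, while 16 of 23 late nociceptor and itch genes and 12 of 17 transmitter genes are off.

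Genes of other tissues were on as well. All 10 endothelial genes were on, with Cdh5 at 19.7, 22.6 and 22.3 RPKM, and 9 of 10 macrophage genes were on at low levels, such as C1qb at 3.40, 5.48 and 4.36 RPKM. Mesenchyme genes were on for 17 of 20 members, led by the collagen genes Col3a1 at 83.8, 128 and 134 RPKM and Col1a2 at 74.2, 122 and 134 RPKM. Spinal cord genes were low, with 0 of 22 on, 3 mixed and 19 off. Their defining motor neuron gene Mnx1 was listed at 0 and Olig2 was at 0, 0 and 0.0408 RPKM. Others were uneven, with Pax2 mixed at 0.154, 0.935 and 1.17 RPKM and Lbx1 off at 0, 0.580 and 0.590 RPKM. The 22 genes summed to 3.04, 7.02 and 8.13 RPKM, lowest in control 1. All 6 melanoblast genes were off, and of 9 epithelial genes 1, Cdh1, was on. The part of these cells in the results was not tested.

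Most genes were level among the 3 controls. Over the 13125 genes with a mean of 1 RPKM or more, the median SD of log2(RPKM + 1) was 0.12, where counting error alone would give a median of 0.07. Pearson's r of log2(RPKM + 1) across these genes was 0.980 for controls 1 and 2, 0.984 for controls 1 and 3 and 0.984 for controls 2 and 3, and genes are not independent replicates. The highest and lowest control differed 2-fold or more on the RPKM + 1 scale in 360 genes, or 2.74% of the 13125, and 4-fold or more in 46. This share was 4.42% at 1 to 10 RPKM, 1.08% at 10 to 100 RPKM and 2.99% at 100 RPKM and above, and the median SD was 0.14, 0.10 and 0.11 on the log2 scale. With 3 values in 1 group no test was made, and an SD over 3 values is itself imprecise.

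The steadiest genes came from unrelated cell functions. Among the 6900 genes with a mean of 10 RPKM or more the smallest SD was that of Btf3l4, a basic transcription factor 3 relative, at a mean of 33.6 ± 0.0336 RPKM (SD, n = 3). It was followed by Rexo4, Plcg1, Bex1, Csnk1g3, Cops6, Pgs1, D15Ertd621e, Mrpl32 and Serinc3, each with an SD of 0.0039 or less on the log2 scale. Bex1, a brain-expressed X-linked gene, was at 42.3, 42.3 and 42.2 RPKM and Plcg1, a phospholipase of receptor signalling, at 46.1, 46.0 and 46.0 RPKM. With 3 values per gene and many genes ranked, the smallest SDs are also those picked as smallest. All 20 reference genes were on and none varied 2-fold. The transferrin receptor gene Tfrc (33.3, 33.2 and 33.2 RPKM) and Cyc1 (88.4, 88.1 and 87.4 RPKM) had the smallest SDs of them, 0.0043 and 0.0081 on the log2 scale. Hprt (26.3, 26.1 and 27.2 RPKM) and Actb (1011, 1057 and 997 RPKM) were also close, while Gapdh was at 196, 234 and 205 RPKM. The least steady was B2m, a subunit of class I MHC, at 27.8, 48.6 and 46.5 RPKM, where 98.1% of genes with a mean of 10 RPKM or more had a smaller SD.

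Among all genes with a mean of 1 RPKM or more, control 1 was the highest in 22.2%, control 2 in 39.3% and control 3 in 38.6%, and control 1 was the lowest in 44.5%, control 2 in 31.2% and control 3 in 24.3%. These shares are the background for the counts that follow. Of the 360 genes past 2-fold, control 1 was the one farthest from the median control in 158 (132 of them with control 1 low), control 2 in 117 (62 high and 55 low) and control 3 in 85 (47 high and 38 low). The rule gives each of the 360 genes to 1 control, so the split by itself does not mark a set particular to a library.

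Control 2, titled WT, had lower neuronal and higher dividing-cell messages than controls 1 and 3. Of the 30 pan-neuronal genes 29 were lowest there, against the 31.2% of all genes, and the median member stood at 0.778 of the mean of controls 1 and 3 on the RPKM + 1 scale. Of the 13 nociceptor lineage genes with a mean of 1 RPKM or more 13 were lowest in control 2 (median ratio 0.729). So were 12 of 12 sodium channel genes (0.737), with Scn9a and Scn10a counted in both lists. Of the 31 cell cycle genes 29 were highest there, against the 39.3% of all genes, with a median ratio of 1.40, and of the 32 neurogenesis genes 19 were (1.19). Over all 13125 genes the median ratio was 1.01. The differences were mostly small, for only 1 pan-neuronal gene, the actin-binding protein gene Avil, and 0 cell cycle genes passed 2-fold. Of the nociceptor genes 5 of 13 did, against 2.74% of all genes, and 0 of them without control 2.

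The other neuronal, glial and crest lists differed in where control 2 lay. Late nociceptor and itch genes had a median ratio of 0.752 in control 2, mature glial and myelin genes 0.84, neuropeptides 0.844 and transduction channels 0.847. Some members of these lists, such as Trpv1, P2rx3 and Tac1, are also on the nociceptor lineage list. Neural crest and boundary cap genes had a ratio of 1.42 and were highest in control 2 for 15 of 19. Control 1 was the lowest for 15 of these 19 too, against 44.5% of all genes, with a median ratio of 0.685. Of them, Twist1 is also on the mesenchyme list. In control 2, precursor glia genes had a median ratio of 0.965, sensory transcription factors 0.982, mechanoreceptor genes 0.902 and proprioceptor genes 1.12. Ntrk2 was highest in control 2 (8.61, 10.7 and 8.68 RPKM) and so was Ntrk3 (8.81, 9.53 and 7.99 RPKM). Neurog1, at 31.6 RPKM in control 2, was the neurogenesis gene with the widest range at 10 RPKM or more. Neurod1, further down the same cascade, was at 71.9 RPKM in control 2 and at 66.9 and 62.5 RPKM in controls 1 and 3, an SD of 0.10 on the log2 scale. Muscle genes were also highest in control 2 for 13 of 16, and the epithelial gene Krt5 was at 0.210, 3.72 and 0.632 RPKM, and the part of such tissue in the pattern was not tested. With 1 library titled WT, the genotype and the embryo cannot be told apart.

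**Figure D3:**
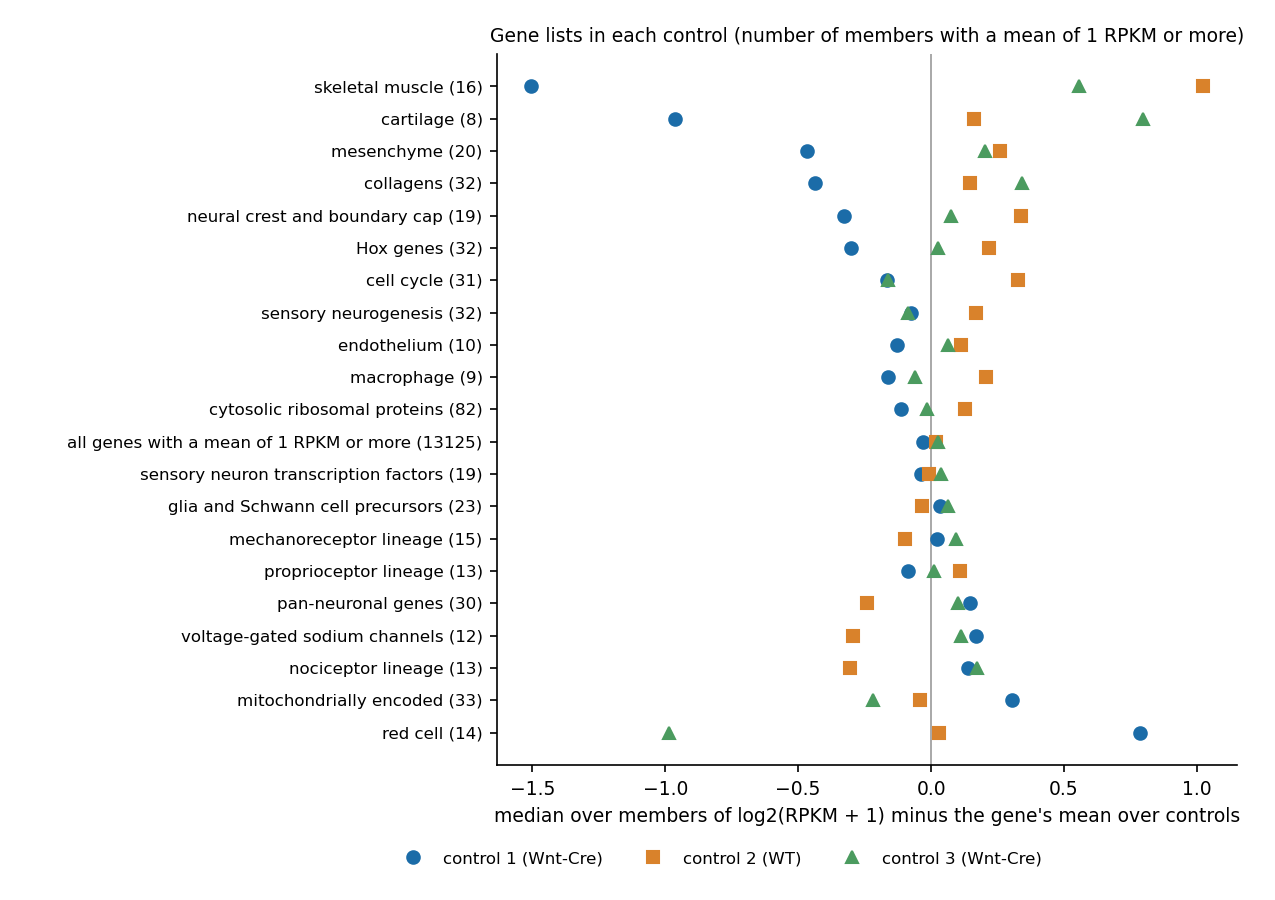
Median over the members of each list of log2(RPKM + 1) minus the gene's own mean over the 3 controls, 1 symbol per control, for members with a mean of 1 RPKM or more (their number in brackets). Control 2 lies left of the others for pan-neuronal (-0.24), sodium channel (-0.29) and nociceptor genes (-0.30) and right for cell cycle genes (0.33), control 1 lies far left for skeletal muscle (-1.51), and control 3 far left for red cell genes (-0.98).

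Single genes stood out in control 2. The widest range belonged to Cwc22, a splicing factor gene (chromosome 2, 77881159 to 77946356 in GRCm38.p6), at 121, 11.2 and 134 RPKM. Gal (chromosome 19, 3409915 to 3414544) was 5.95-fold and Th 3.96-fold apart on the RPKM + 1 scale, and Sfrp5, Islr2, Scn10a, Avil and Tub followed with ranges of 3.32-fold to 2.38-fold. On the high side of control 2 were Lars2, a mitochondrial leucyl-tRNA synthetase gene (25.0, 90.7 and 46.1 RPKM), and the histone variant gene H2afv (17.9, 52.2 and 18.1 RPKM). The Wnt antagonist Frzb, the receptor Epha3, Fndc3c1, Gas1, Neurog1, Boc, Zic1 and Gsta4 came next, from 2.53-fold to 2.10-fold. Controls 1 and 3 lay close together in Cwc22 and H2afv and farther apart in Th. The 100 bases before the annotated start of Th are given because this gene was on while Dbh was off and varied among the controls (RefSeq, chr7:142899996-142900095 in GRCm38.p6, minus strand, 5' to 3'). Capitals mark TGACGTCA, the cAMP response element, which 1.15% of 32851 promoter windows of the same length hold on either strand. It begins 45 bases before the start.
Th: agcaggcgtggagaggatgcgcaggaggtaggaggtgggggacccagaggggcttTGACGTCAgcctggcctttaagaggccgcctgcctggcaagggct

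Control 1 was low in muscle, cartilage and mesenchyme genes. Of the 20 skeletal muscle genes 16 had a mean of 1 RPKM or more, and in all 16 control 1 was the lowest, against 44.5% of all genes. Of these 16, 15 passed 2-fold, 0 did so without control 1, and the median member stood at 0.205 of the mean of controls 2 and 3. Cardiac actin Actc1, which embryonic muscle also makes (chromosome 2, 114047282 to 114052875), was at 2.33, 56.3 and 41.2 RPKM. Mylpf, a fast myosin light chain, was at 3.10, 33.8 and 19.5 RPKM and Tnnt1, slow troponin T, at 2.56, 21.2 and 19.01 RPKM. The regulators Myog (0.396, 13.1 and 14.8 RPKM) and Myod1 (0.0246, 3.13 and 3.47 RPKM) went the same way, with control 1 the lowest. In the summed RPKM muscle held 0.00910, 0.05996 and 0.0447%.

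The upstream bases of 3 muscle genes are shown because these genes moved together across the controls (RefSeq, GRCm38.p6, the 100 bases before the annotated start, 5' to 3'). Tnnt1 lies on the minus strand (chr7:4515976-4516075), and Myh3, embryonic myosin (chr11:67078200-67078299), and Mylpf (chr7:127211508-127211607) on the plus strand. Capitals mark TATAAA, the TATA box core, in Tnnt1 and Myh3, 30 and 29 bases before the start, and CAGCTG, an E-box form that myogenic factors can bind, in Mylpf, 51 bases before it.
Tnnt1: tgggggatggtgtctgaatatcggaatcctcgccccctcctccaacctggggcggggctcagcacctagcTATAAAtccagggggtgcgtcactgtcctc
Myh3: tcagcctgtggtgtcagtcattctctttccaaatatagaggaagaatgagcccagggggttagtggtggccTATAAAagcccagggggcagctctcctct
Mylpf: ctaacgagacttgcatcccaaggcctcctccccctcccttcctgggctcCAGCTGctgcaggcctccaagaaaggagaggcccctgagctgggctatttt
Of the 20 muscle genes 18 had a window, of which 5 held TATAAA and 4 held CAGCTG on either strand, and these 3 were chosen after the matches were seen. Among all 32851 windows the shares were 5.56% and 5.81%. In the windows printed, no match of 1 motif overlapped that of another.

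Cartilage, mesenchyme and collagen genes were, like muscle genes, mostly lowest in control 1. All 8 cartilage genes with a mean of 1 RPKM or more were lowest in control 1 and passed 2-fold, with Col2a1 at 16.3, 46.7 and 44.8 RPKM and Col9a1 at 1.69, 12.6 and 12.7 RPKM. With the mean taken anew over the pair left, 3 cartilage genes passed without control 1, 9 without control 2 and 5 without control 3. Those counts can include genes outside the 8. Cartilage and muscle did not rank controls 2 and 3 alike, since control 3 was the highest for 6 of the 8 cartilage genes and control 2 for 13 of the 16 muscle genes. Of 20 mesenchyme genes 18 were lowest in control 1, and 8 passed 2-fold (1 without control 1), among them the platelet-derived growth factor receptor gene Pdgfra (8.67, 21.6 and 28.2 RPKM) and Twist1 (4.29, 15.2 and 14.5 RPKM). Collagens were highest in control 3 for 20 of 32 genes, against 38.6% of all genes, and Tgfb3 (5.70, 7.86 and 18.9 RPKM), Col6a3 and Tgfb2 led the genes with control 3 high. Capn6, Dlk1, Pop4, Emilin1 and the antisense transcript Peg3as completed the widest ranges with control 1 low, from 7.54-fold (Capn6) to 2.89-fold (Peg3as). The 10 endothelial genes had 0 members past 2-fold, though 9 were lowest in control 1.

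Hox genes split by position. Hox genes are ordered along each cluster as their domains are along the body, with groups 9 and 10 active at lumbar levels and groups 11 to 13 toward the sacrum, tail and limb ends. Of 39 Hox rows 29 were on, 5 mixed and 5 off, and the highest were Hoxb9 at 30.3, 63.1 and 36.4 RPKM and Hoxc10 at 24.0, 45.7 and 34.3 RPKM. Groups 1 to 10 summed to 283, 440 and 361 RPKM, and control 1 was the highest in 1 of these 30 genes. Groups 11 to 13 summed to 26.7, 4.04 and 2.90 RPKM, and control 1 was the highest in 8 of 8 genes, Hoxa13 being listed at 0 and left out. Hoxb13 (0.0681, 0 and 0 RPKM) and Hoxd13 (0.186, 0 and 0.0400 RPKM) were so low that a few reads decide which control is highest. Of the 32 Hox genes with a mean of 1 RPKM or more 10 passed 2-fold, against 2.74% of all genes, and 0 did so without control 1. They came from both sets of groups. Control 1 was the lowest in some, such as Hoxb9 and Hoxc8 (4.35, 10.4 and 7.12 RPKM), and the highest in the late ones. Hoxc13 (chromosome 15, 102921131 to 102928814) was at 5.57, 0.0509 and 0.0204 RPKM, Hoxd11 at 6.95, 0.948 and 0.696 RPKM and Hoxc12 at 2.20, 0 and 0 RPKM. Hotair, a noncoding RNA transcribed within the HoxC cluster between the genes Hoxc11 and Hoxc12, was at 3.96, 0.130 and 0.134 RPKM. Control 1 thus held late Hox messages that controls 2 and 3 held at or near 0 for groups 12 and 13.

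**Figure D4:**
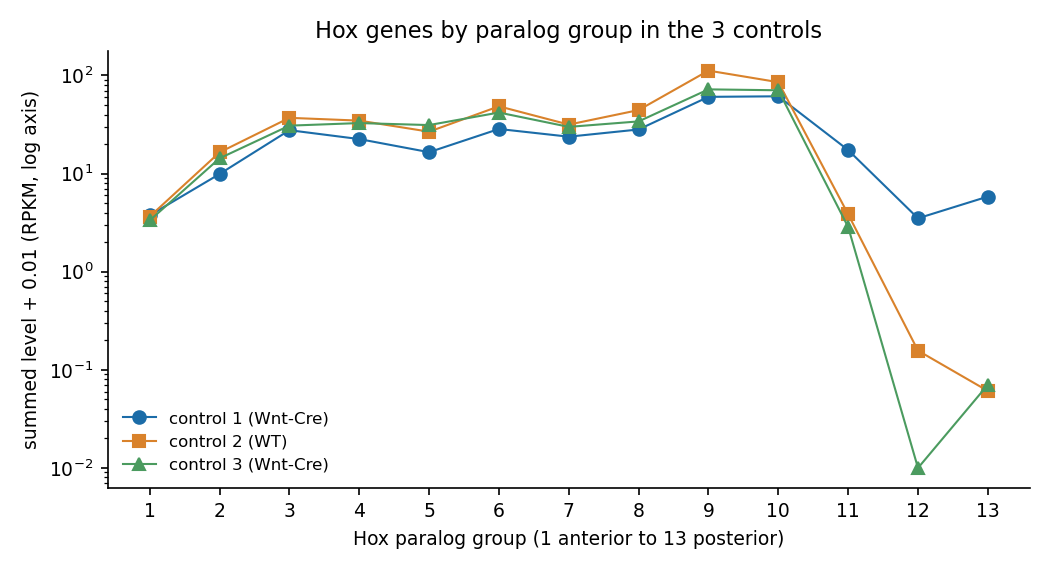
Summed level of the Hox genes of each paralog group (RPKM plus 0.01, log axis) in the 3 controls. The 3 lines lie within 2-fold of each other up to group 10, where control 1 is at 61.3, control 2 at 85.4 and control 3 at 70.6 RPKM, and part from group 11, where they are at 17.4, 3.84 and 2.84 RPKM.

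Red cell genes were high in control 1 and low in control 3. All 14 red cell rows passed 2-fold, control 3 was the lowest in 14 of 14 (24.3% of all genes) and control 1 the highest in 12 of 14 (22.2% of all genes). Without control 1, 7 passed 2-fold, and without control 3, 5 did. Several of these rows are near-identical copies or loci of a single symbol (Hba-a1, Hba-a2, Hbb-b1, Hbb-b2), so they are not separate measurements. The embryonic globin gene Hbb-y was at 8405, 4072 and 1467 RPKM, Hbb-bh1 at 278, 298 and 51.8 RPKM and Hba-x at 1085, 854 and 223 RPKM. Alas2, the first enzyme of haem synthesis in red cells, was at 33.1, 21.2 and 8.86 RPKM and Slc4a1, the band 3 anion exchanger, at 22.8, 18.4 and 6.05 RPKM. Haemoglobins held 6.68, 3.33 and 1.67% of the summed RPKM. Mitochondrially encoded genes were likewise highest in control 1 for 30 of 33 and lowest in control 3 for 27 of 33. Of these 33, 11 passed 2-fold, against 2.74% of all genes. With the mean taken anew over the pair left, 3 of the list passed without control 1 and 3 without control 3. The 11 included short tRNA genes, such as mt-Tk at 31.9, 15.8 and 8.37 RPKM, with 11 estimated reads at the lowest. Also past 2-fold was mt-Nd6 at 1747, 1283 and 742 RPKM, while mt-Co3 was not, at 6125, 5421 and 5395 RPKM. When each control was scaled without haemoglobin and mitochondrial genes, 29 of 30 pan-neuronal genes were lowest and 29 of 31 cell cycle genes highest in control 2.

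**Figure D5:**
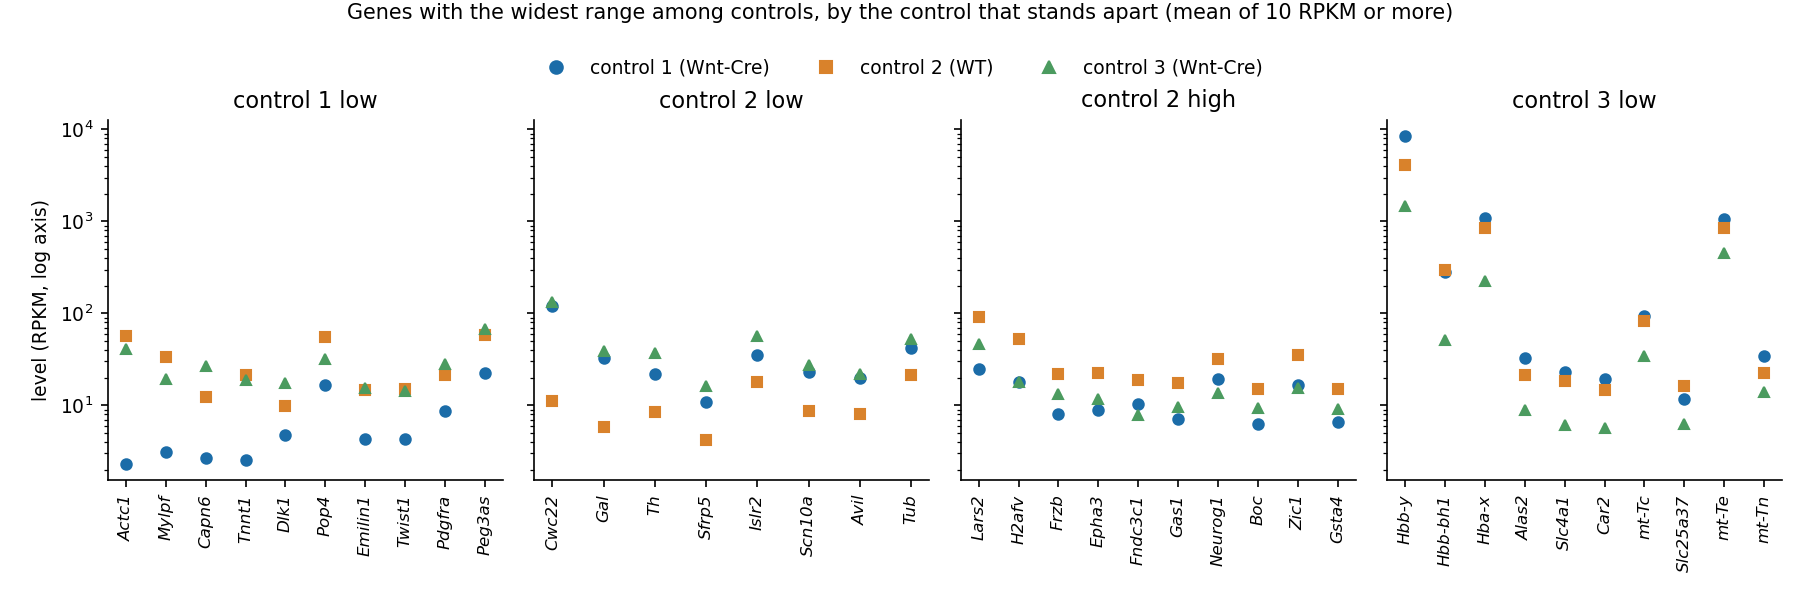
Level in RPKM (log axis) in each control of up to 10 genes with the widest ranges and a mean of 10 RPKM or more, by the control that stands apart. Muscle genes lead where control 1 is low, Cwc22 and Gal where control 2 is low, Lars2 and H2afv where control 2 is high, and globin genes where control 3 is low.

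Sex-linked genes did not differ in kind among the controls. The Y-linked genes Eif2s3y, Ddx3y, Kdm5d and Uty were on in all 3, between 5.74 and 21.0 RPKM, and Xist was at 0.0748, 0.0621 and 0.0316 RPKM.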

How the data were processed

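Lumbar ganglia came from E12.5 embryos, and Trizol RNA went into stranded mRNA libraries, per the labels' protocols. All libraries share 1 run and lane. The submitters' processing notes name Bowtie and mm10. The sources used here do not give the counting tool or annotation. The table the authors deposited has decimal commas and names no unit. Its deposited values were taken as RPKM, because a gene's low values came as multiples of 1 unit that fell with transcript length (Spearman's rho -0.828 across 1364 genes with 1 transcript, which are not independent replicates and also gave the depth). Such units, to within 0.01 read, fitted 94.5% of the genes with a mean under 1 RPKM and a value above 0 in at least 2 controls and 31.5% of all 18215 genes above 0 in at least 2, since at most 40 reads were tried. The median was 353 estimated reads per control in genes with a mean of 1 RPKM or more.

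The 3 controls were described without tests, as 1 group. Spread is the SD of log2(RPKM + 1), which understates the change of low genes, and a difference of 2-fold is the ratio of highest to lowest control on RPKM + 1. The 42 gene lists held 1007 symbols, of which 14 were matched through a RefSeq synonym and 2 had no row. The lists, like the choice of these libraries, were made with earlier results of these data known. The text names the marker genes, the 20 most abundant, the highest and the off members of each list, the 10 with the widest range for each control and direction and the 10 with the smallest SD at a mean of 10 RPKM or more (predicted genes and numbered loci were not named). Some genes the rule selects are not reported here. Other list members, Piezo1, Hotair and the late Hox genes among them, were named after their values were seen. Rows that share reads with copies or with an overlapping gene are uncertain. The calculation of the range among controls and of the control apart was tested on simulated data, and the depth estimate was not. The scripts ran on Python 3.11.15 with NumPy 2.4.6, pandas 2.3.3 and matplotlib 3.10.9. Alternatives were other thresholds, pseudocounts, filters and scalings and leaving out each control. With a control left out, the filter on the mean was applied anew to the pair left, so the genes counted can change.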

Additional observations from a re-analysis of the deposited data

How the results depend on the processing

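The counts of genes on, the share of the 20 most abundant rows and the total of list members on stayed within 1.5 times or 1 SD under every alternative run. The number of genes past 2-fold (360) was 635 with a pseudocount of 0.1, 743 when each control was scaled to transcripts per M, which makes the pseudocount smaller beside the values, and 85 among genes with a mean of 10 RPKM or more, where fewer genes are tested. Leaving out 1 control gave 166 (without control 1) to 212 (without control 3), with 190 without control 2, since a pair of libraries has a narrower range. The median SD (0.118) was 0.133, 0.148 and 0.0994 under these 3 settings and 0.0757 with no filter, and 0.0822 to 0.108 with 1 control left out. Under the same 3 settings, in the same order, genes with control 1 apart (158) numbered 282, 329 and 38, those with control 2 apart (117) numbered 204, 218 and 32, and those with control 3 apart (85) numbered 149, 196 and 15. With a pair of controls no control can be apart, so that count was not run. Of the Hox genes 6 passed 2-fold after median centring, against 10. Of 171 list counts past 2-fold, 126 stayed within 1.5 times and 45 did not, and nociceptor genes numbered 2 without control 3. For 16 lists the members highest and lowest in each control were counted under the 3 scalings. Scaled to transcripts per M, 15 of 18 nociceptor genes were lowest in control 2, and the control in which most members were highest moved from control 1 (18 of 30) to control 3 (19 of 30) for pan-neuronal genes and from control 1 (8 of 12) to control 3 (8 of 13) for sodium channels. Ribosomal protein genes lowest in control 1 (61 of 82) numbered 43 after median centring. Other lists were not run this way. Depth limits values under about 1 RPKM, where a few reads decide.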

Other observations

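Imprinted genes, of which only 1 parental copy is active, were prominent in these libraries. Of 28 imprinted genes 21 were on and 6 were at 100 RPKM or more in each control, against 52.1% and 1.95% of all rows. Nnat was at 588, 697 and 711 RPKM, the noncoding RNA H19 at 409, 756 and 622 RPKM and its neighbour Igf2, a growth factor gene, at 246, 375 and 322 RPKM. Peg3, a zinc finger gene, was at 18.99, 47.9 and 55.9 RPKM, its antisense row Peg3as at 22.5, 58.2 and 66.8 RPKM and the neighbouring gene Zim1 at 0.508, 3.06 and 5.53 RPKM, so that control 1 was the lowest in each. The sources used here do not state if the counting used strand, so reads of Peg3 and Peg3as cannot be told apart. Of the 22 imprinted genes with a mean of 1 RPKM or more 16 were lowest in control 1, against 44.5% of all genes. Control 1 was also the lowest for 18 of 20 mesenchyme genes, and the part of connective tissue in these levels was not tested.

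Of 22 immediate early genes 16 were on and 6 off. Klf6 was at 26.3, 22.7 and 24.3 RPKM, Jun at 19.4, 27.4 and 20.1 RPKM and Egr1 at 1.84, 2.51 and 2.36 RPKM, while Fos at 0.592, 0.490 and 0.660 RPKM and Arc at 0.0610, 0.0681 and 0.147 RPKM were off. Glycolysis genes leaned to control 2, where 13 of 16 hypoxia and glycolysis genes were highest, with Pkm at 282, 363 and 291 RPKM and Ldha at 152, 204 and 165 RPKM, and none passed 2-fold. Cytosolic ribosomal protein genes were highest in control 2 for 71 of 82 and lowest in control 1 for 61 of 82, with 1 past 2-fold. Of 75 rows of replication-dependent histones 54 were off, and the libraries were made from polyadenylated RNA.

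Among long noncoding RNAs 14 of 19 were on. Miat was at 63.1, 53.5 and 78.0 RPKM and Malat1 at 48.9, 23.9 and 36.0 RPKM. Axon guidance genes were on for 24 of 26, led by the adhesion molecule gene Cntn2 at 164, 109 and 181 RPKM and the semaphorin receptor gene Nrp1 at 91.3, 84.7 and 82.5 RPKM. Ntn1, the netrin gene, was at 0.388, 3.96 and 3.39 RPKM, low in control 1 as the muscle and mesenchyme genes were.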
